A study of Mus musculus with 5 samples.

Results

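The peaks described here are 2494 regions of the mouse genome where TEAD was strongly bound and no peak of YAP or Myc was found. TEAD proteins are the DNA-binding partners through which YAP, a coactivator without a DNA-binding domain of its own, reaches chromatin. They were chosen from the list of 48571 TEAD peaks by 3 values of that data set: a pileup, the number of extended sequence tags stacked at the peak summit, of 50 or more, no shared base with a YAP peak, and no shared base with a Myc peak. These regions are called TEAD-only peaks below. They made up 26.0% of the 9601 TEAD peaks of pileup 50 or more, whereas 65.2% of all TEAD peaks, weak ones included, held neither YAP nor Myc. The TEAD peaks most like them are the 4054 of pileup 50 or more that held a YAP peak and no Myc peak, called YAP-TEAD peaks. Of the other strong TEAD peaks, 880 held Myc without YAP and 2173 held both.

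Chromatin immunoprecipitation followed by sequencing (ChIP-seq) was performed in 3T9 cells, immortalized mouse embryonic fibroblasts, with 1 sample each for TEAD, YAP, Myc and RNA polymerase II (RNAPol2), and all peaks were called against a single control library. Every ChIP sample came from cells that carried MycER, a Myc protein switched on by 4-hydroxytamoxifen (400 nM), and the activated mutant YAPS127A, switched on by doxycycline (2 µg/ml), so no sample without active Myc and YAP was compared. The labels list the genotype as 3T9MycER and do not say which TEAD paralogs the antibody recognizes or whether the line is a single clone, and no treatment appears in the title of the input. Chromatin for YAP was fixed with a protein crosslinker before 1% formaldehyde, and chromatin for the other factors with 1% formaldehyde alone, so a missing YAP peak and a difference in fixation cannot be told apart. Gene expression was not measured in these samples, and the identity of the cells was not checked against markers.

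The ChIP libraries held 31770727 tags for TEAD, 29528304 for YAP, 20441605 for Myc and 38345189 for RNAPol2, and the control held 60189064. The absence of a Myc peak thus rested on the fewest tags. Each antibody had a single sample, so replicate error is unknown and no p-value is given. The 95% intervals of shares (Wilson) and of their differences (Newcombe) cover counting error only, since they treat peaks as independent and tags as independent molecules.

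As background, TEAD proteins bind a short motif in promoters and, more often, in distal enhancers. The Hippo kinases keep YAP out of the nucleus, and TEAD without YAP or its paralog TAZ can bind corepressors such as VGLL4 in its place. TAZ and corepressors were not assayed in these samples.

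The comparison asks how strongly bound TEAD sites that lack YAP and Myc differ from those that hold YAP. Pileup and YAP and Myc overlap chose the peaks, and the heights, folds and widths of the TEAD peaks are given as a description. TEAD-only peaks clustered at the lower end of the range of strong peaks. Their median pileup was 59, with quartiles of 54 and 70, whereas YAP-TEAD peaks had a median of 80, with quartiles of 63 and 109. Among TEAD peaks of pileup 50 to 54, 49.8% held neither YAP nor Myc (730 of 1467). This share was 33.2% at 60 to 74, 17.3% at 75 to 99, 5.59% at 100 to 149 and 0.908% (8 of 881) at 150 or more. None of the 100 TEAD peaks of highest pileup and 12 of the highest 1000 were TEAD-only peaks. The threshold did not fall in a gap of the distribution, since 179 TEAD-only peaks had a pileup of exactly 50 and 170 TEAD peaks without YAP or Myc had a pileup of 49. Just inside it, the peaks of highest fold enrichment were chr1:12137853-12138300, chr1:195393364-195393848 and chr11:17656082-17656641, each with a pileup of 50 and a fold of 15.91. Just outside, chr1:57395955-57396350, chr1:91681207-91681658 and chr11:31477092-31477448 had a pileup of 49 and a fold of 15.59. Coordinates here and below are 1-based positions in the mm9 build.

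**Figure D1:**
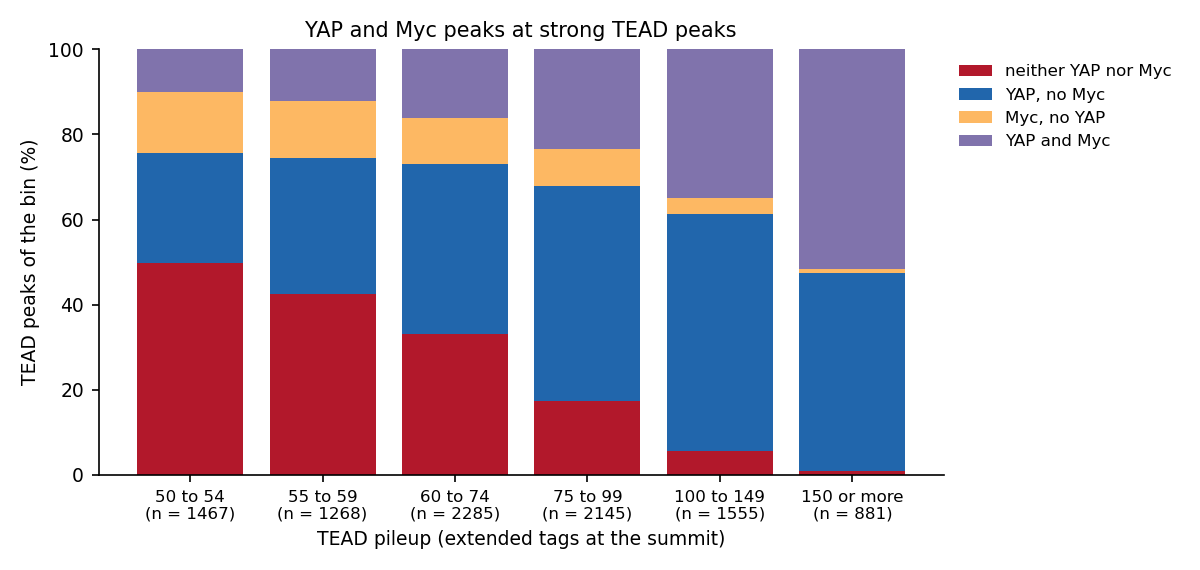
Share of TEAD peaks (vertical axis, %) that held neither YAP nor Myc, YAP without Myc, Myc without YAP, or both, by TEAD pileup (horizontal axis, extended tags at the summit; n is the number of TEAD peaks of the bin). The share with neither is 49.8% at a pileup of 50 to 54 and 0.908% at 150 or more.

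The YAP peaks at YAP-TEAD peaks had a median pileup of 29, with quartiles of 23 and 36, against 25 (21 and 33) over the whole YAP list, in which the lowest pileup was 14. At YAP-TEAD peaks of TEAD pileup 50 to 54 the median YAP pileup was 23, with quartiles of 20 and 27, at those of TEAD pileup 100 to 149 it was 36 (30 and 43), and at 150 or more it was 53 (42 and 67). Per peak, the YAP pileup was a median of 0.351 times the TEAD pileup, with quartiles of 0.292 and 0.421. A peak list gives no YAP value where no peak was called, so YAP binding below the calling level at TEAD-only peaks was neither measured nor shown to be absent.

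The control level was higher at TEAD-only peaks. It is the local background that the peak caller derived from the control library, not a direct count of control tags. It was computed as pileup over fold enrichment and is given relative to its lowest value in the TEAD list (the floor). The median was 1.27 times the floor at TEAD-only peaks and 1.18 times at YAP-TEAD peaks. A control level of 2 times the floor or more was found at 256 TEAD-only peaks, or 10.3% (9.13 to 11.5), and at 6.51% of YAP-TEAD peaks (5.79 to 7.31). It was found at 8.13% of all TEAD peaks of pileup 50 or more and at 4.60% of all TEAD peaks. Pileup enters this level and chose the peaks, so the level is given as a description. The share of strong TEAD peaks without Myc that held YAP was 66.7% (64.7 to 68.6) where the control was within 5% of the floor, 57.9% (55.3 to 60.5) between 1.5 and 2 times, and 51.8% (47.3 to 56.3) between 2 and 3 times. At pileups under 60 the same shares were 46.9%, 28.9% and 23.8%. Over the whole YAP list, the control level was taken relative to the lowest value of that list. On this scale the lowest YAP pileup that was called was 14 in the first of these ranges, 17 in the second and 21 in the third. Peaks were called at a fixed p-value cutoff against the local background, so this minimum has to rise with the control level. The part of the control level in the absence of YAP calls was not tested.

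Pileup and fold enrichment, the ratio of the pileup to the local background of the control, ranked some TEAD-only peaks differently. The 3 TEAD-only peaks of highest pileup lay close together near the centromeric end of chromosome 11. The peak at chr11:3059797-3060007 had a pileup of 226 but a fold of 1.63, with the control at 44.2 times the floor. The peaks at chr11:3085848-3086058 and chr11:3053814-3054199 had pileups of 179 and 178 and folds of 2.17 and 1.98, at 26.3 and 28.6 times the floor. They were the 3 TEAD-only peaks of lowest fold as well, and none overlapped RNAPol2. Such values were not limited to TEAD-only peaks. The YAP-TEAD peak at chr11:3038467-3038784 had a pileup of 185 and a fold of 2.64, at 22.3 times the floor, and the lowest fold of YAP-TEAD peaks was 1.59. Among TEAD-only peaks the next lowest fold was 2.47 at chr1:124253630-124253940, with a pileup of 60 and the next TEAD peak 789 kb away. It was followed by chr2:5300213-5300401, with a pileup of 76 and a fold of 2.62. Such peaks were few. In all, 11 TEAD-only peaks, or 0.441%, had a control level of 5 times the floor or more. The share was 0.0493% of YAP-TEAD peaks, 0.427% of all TEAD peaks of pileup 50 or more and 0.0865% of all TEAD peaks. A fold under 5 was found at 13 TEAD-only peaks, and its share in the other groups was not computed. A fold under 10 was found at 11.9% of TEAD-only peaks, 2.86% of YAP-TEAD peaks and 68.9% of all TEAD peaks, while 17.6% and 54.2% of the first 2 groups reached a fold of 20.

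**Figure D2:**
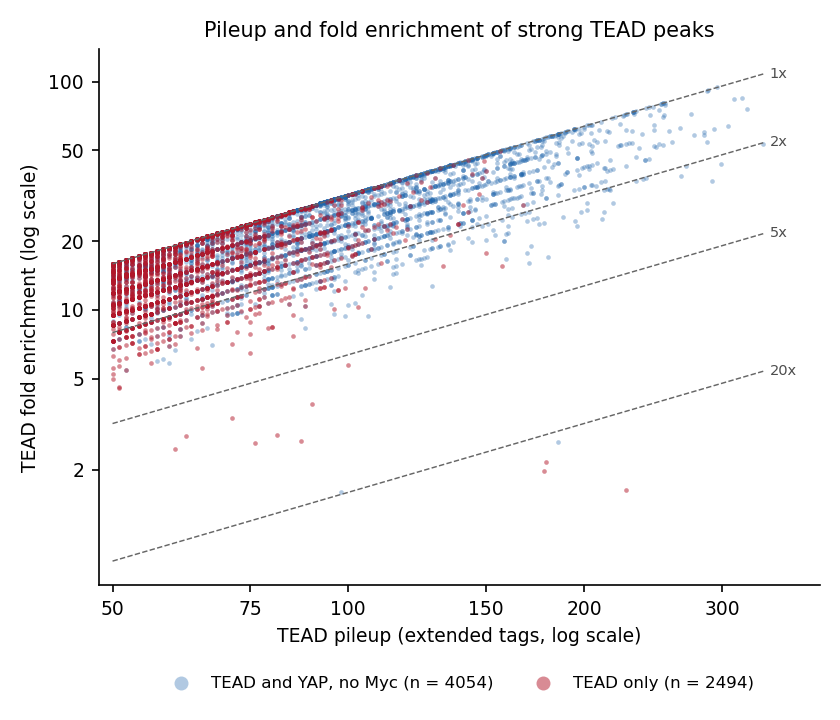
TEAD fold enrichment (vertical axis, log scale) against TEAD pileup (horizontal axis, extended tags, log scale) for each of the 2494 TEAD-only peaks (red) and the 4054 YAP-TEAD peaks (blue); dashed lines mark control levels of 1, 2, 5 and 20 times the floor. Most peaks lie between the lines for 1 and 2 times, and the 3 red points at the lower right are the chromosome 11 peaks with folds of 1.63 to 2.17.

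At equal pileup, TEAD-only peaks were also narrower. The median width was 428 bp for TEAD-only and 551 bp for YAP-TEAD peaks of pileup 50 to 54, 488.5 and 583 bp at 60 to 74, and 516.5 and 639.5 bp at 75 to 99. A wider peak has more bases that can meet a peak of another list, and the rule left out every TEAD peak that shared even 1 base with YAP. Width is therefore tied to the choice of the peaks and is given as a description.

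RNAPol2 was not used to choose the peaks. TEAD-only peaks held RNAPol2 less often than YAP-TEAD peaks did. An RNAPol2 peak overlapped 484 of 2494 TEAD-only peaks, or 19.4% (17.9 to 21.0), and 1484 of 4054 YAP-TEAD peaks, or 36.6% (35.1 to 38.1), a difference of -17.2 percentage points (-19.3 to -15.03). RNAPol2 overlapped 33.9% of all TEAD peaks and 48.5% of those of pileup 50 or more, groups that include the TEAD peaks with Myc. Compared with the 29152 weaker TEAD peaks without YAP or Myc, of which 14.3% held RNAPol2 (13.9 to 14.7), TEAD-only peaks held it more often by 5.11 points (3.55 to 6.76). The difference from YAP-TEAD peaks was present in each bin of pileup under 150. It was 18.2% against 26.6% at a pileup of 50 to 54 and 20.4% against 33.9% at 75 to 99. At 100 to 149, where 87 TEAD-only peaks remained, it was 33.3% against 45.1%, with an interval of the difference of -21.4 to -0.823 points. With YAP-TEAD peaks weighted to the pileup bins of TEAD-only peaks the difference was -10.9 points (-13.3 to -8.45). It was -5.66 points (-8.26 to -3.07) with weighting for width as well, a setting chosen after seeing the data. The difference thus shrank from -17.2 to -5.66 points with weighting for pileup and width, and its direction did not change.

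**Figure D3:**
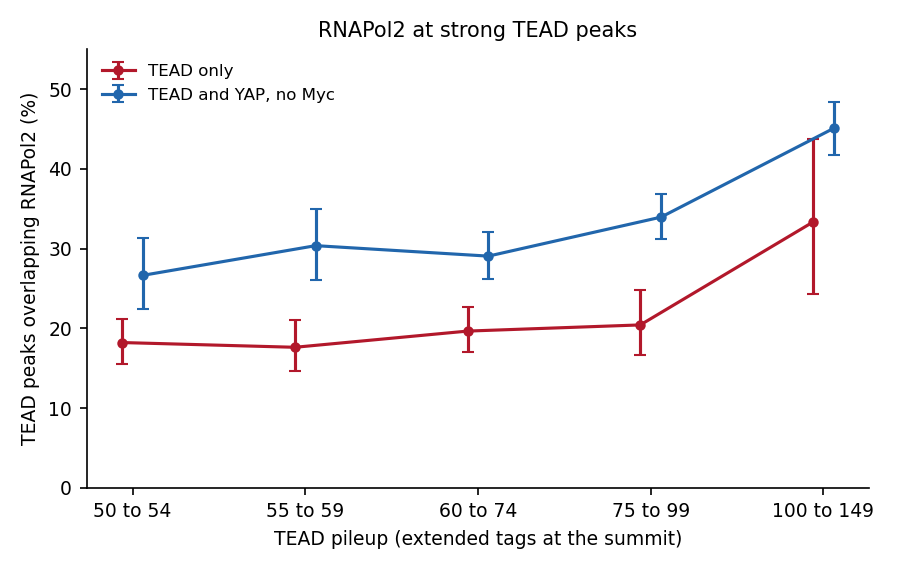
Percentage of TEAD peaks that overlapped an RNAPol2 peak (vertical axis) by TEAD pileup (horizontal axis, extended tags at the summit) for TEAD-only and YAP-TEAD peaks, with 95% Wilson intervals; pileups of 150 or more, with 8 TEAD-only peaks, are left out. TEAD-only peaks lie lower in each bin, at 18.2% against 26.6% in the first and 33.3% against 45.1% in the last.

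This difference lay mostly among RNAPol2 peaks of fold under 10, a range that includes peaks of the stronger 50% of the RNAPol2 list. With only that stronger 50% the difference was -9.23 points (-11.0 to -7.40). RNAPol2 peaks of fold under 10 were found at 13.2% of TEAD-only peaks (11.96 to 14.6) and 29.6% of YAP-TEAD peaks (28.2 to 31.0), a difference of -16.4 points (-18.3 to -14.4). For folds of 10 to under 20 the difference was -1.33 points (-2.31 to -0.309). RNAPol2 peaks of fold 20 or more were found at 2.53% (1.98 to 3.22) and 2.02% (1.63 to 2.504), a difference of 0.503 points with an interval that includes 0 (-0.225 to 1.30). Of the peaks with RNAPol2, 13.0% of TEAD-only peaks (10.3 to 16.3) and 5.53% of YAP-TEAD peaks (4.47 to 6.81) had an RNAPol2 fold of 20 or more. The difference was 7.49 points (4.49 to 10.9). Both shares were lower than the 20.8% of weaker TEAD peaks without YAP or Myc that held RNAPol2. Among strong TEAD peaks with RNAPol2 the share was 51.1% for those with Myc and no YAP and 30.6% for those with both. The median RNAPol2 fold was 6.69 at TEAD-only peaks (interval of the median 6.14 to 7.38) and 6.07 at YAP-TEAD peaks (5.89 to 6.28), so the medians did not differ beyond their intervals, and the upper quartiles were 12.1 and 8.81. RNAPol2 peaks over 2 kb wide lay at 17.8% of the TEAD-only peaks with RNAPol2 (14.6 to 21.4), at 9.43% of the YAP-TEAD peaks with RNAPol2 (8.05 to 11.03) and at 22.2% of all TEAD peaks with RNAPol2. The TEAD and RNAPol2 summits lay within 250 bp of each other at 67.1% (62.8 to 71.2) and 77.2% (74.95 to 79.2) of the 2 groups. The 484 TEAD-only peaks with RNAPol2 lay on 482 distinct RNAPol2 peaks. They had a median TEAD pileup of 61 and a median width of 521 bp, against 59 and 463 bp for the 2010 TEAD-only peaks without RNAPol2, and the median control level was 1.28 and 1.27 times the floor.

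Of the 5 strongest RNAPol2 peaks at TEAD-only peaks, 4 were over 2 kb wide. RNAPol2 peaks of that width lay at 17.8% of all TEAD-only peaks with RNAPol2. The TEAD pileup was under 80 at 4 of the 5 TEAD peaks, and the upper quartile over all TEAD-only peaks was 70. At chr1:162969577-162970218 the TEAD pileup was 61 and the RNAPol2 fold 78.28, in an RNAPol2 peak of 8932 bp. At chr11:101519642-101520467 the TEAD pileup was 78, with an RNAPol2 fold of 73.97 over 3897 bp. The TEAD peak at chr8:11557774-11558431 was stronger, with a pileup of 116 and a fold of 36.91, and had an RNAPol2 fold of 69.91 over 1473 bp. RNAPol2 folds of 67.81 and 65.06 were found at chr13:23854232-23854783 and chr4:116862038-116863148, where the TEAD pileups were 55 and 56. Each of these 5 peaks had a Myc peak outside it within 10 kb, at distances of 0.685 to 6.46 kb. Over all TEAD-only peaks with RNAPol2 that share was 46.5%.

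Neighbouring peaks were counted next, leaving out those that overlapped the TEAD peak itself. TEAD-only peaks had another TEAD peak nearby less often than YAP-TEAD peaks did. Another TEAD peak lay within 10 kb of 1423 TEAD-only peaks, or 57.1% (55.1 to 58.99), of 64.5% of YAP-TEAD peaks (63.0 to 66.0) and of 61.6% of all TEAD peaks. The difference from YAP-TEAD peaks was -7.47 points (-9.91 to -5.04), -6.58 points (-9.37 to -3.79) with weighting to the pileup bins, and -4.82 points (-7.995 to -1.65) with weighting to pileup and width, a setting chosen after seeing the data. Among peaks with RNAPol2 the difference was -3.14 points, with an interval that includes 0 (-7.90 to 1.40), and among peaks without RNAPol2 it was -5.60 points (-8.49 to -2.71). The weaker TEAD peaks without YAP or Myc had a share of 58.3%, and the difference from it, -1.29 points, had an interval that includes 0 (-3.32 to 0.726). The median distance to the next TEAD peak was 7.24 kb for TEAD-only (6.78 to 7.87) and 5.58 kb for YAP-TEAD peaks (5.23 to 5.95).

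A YAP peak lay within 10 kb of 20.4% of TEAD-only peaks (18.9 to 22.0), whereas 25.2% of YAP-TEAD peaks had a further YAP peak within that distance (23.8 to 26.5), a difference of -4.75 points (-6.80 to -2.66). Among peaks with RNAPol2 this difference was -1.08 points, with an interval that includes 0 (-5.73 to 3.78), and among those without it was -3.24 points (-5.52 to -0.926). The share over all TEAD peaks was 22.4%. A YAP peak lay within 500 bp of 39 TEAD-only peaks, or 1.56%, against 1.83% of YAP-TEAD peaks and 2.99% of all TEAD peaks. A Myc peak lay within 500 bp of 61 TEAD-only peaks, or 2.45%, against 1.97% and 5.05%. The TEAD-only peak nearest to YAP was at chr9:102551551-102552144, a TEAD peak of pileup 92 with an RNAPol2 fold of 18.97, where YAP, with a pileup of 50 and a fold of 9.27, lay 5 bp from its edge and another TEAD peak 56 bp away. YAP peaks of pileup 17 and 23 lay 20 and 40 bp from the TEAD-only peaks at chr11:106886558-106887035 and chr9:95714289-95714771. The nearest Myc peaks lay 4, 6 and 26 bp from chr6:38483482-38483925, chr6:121060168-121060653 and chr7:29747330-29747831. All 6 of these TEAD-only peaks overlapped RNAPol2. The last of them had a TEAD pileup of 110 and an RNAPol2 fold of 34.95.

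A Myc peak lay within 10 kb of 22.2% of TEAD-only peaks (20.6 to 23.8), 20.9% of YAP-TEAD peaks (19.6 to 22.1) and 25.8% of all TEAD peaks, and the interval of the difference between the first 2 included 0 (-0.733 to 3.38 points). The peaks with RNAPol2 stood apart in this respect. Of the TEAD-only peaks with RNAPol2, 46.5% had a Myc peak within 10 kb (42.1 to 50.9), against 16.3% of those without RNAPol2 (14.8 to 18.0). At YAP-TEAD peaks with RNAPol2 the share was 31.2% (28.9 to 33.6), lower than at TEAD-only peaks with RNAPol2 by a difference of 15.3 points (10.3 to 20.3). Within 1 kb the shares were 13.0% (10.3 to 16.3) and 6.81% (5.63 to 8.20). Among peaks without RNAPol2, the shares within 10 kb were 16.3% and 14.9%, with an interval of the difference that includes 0 (-0.693 to 3.55 points). Whether the difference depends on RNAPol2 was not tested directly.

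An RNAPol2 peak that did not overlap the TEAD peak lay within 10 kb of 33.0% of TEAD-only peaks (31.1 to 34.8), 32.5% of YAP-TEAD peaks (31.1 to 34.0) and 38.8% of all TEAD peaks. The 2010 TEAD-only peaks without RNAPol2 overlap were nearer to it than the corresponding YAP-TEAD peaks, at a median of 35.8 kb (31.5 to 39.5) against 44.4 kb (40.5 to 49.3), leaving out 1 peak of each group on a sequence without RNAPol2 peaks. Over all peaks, those overlapping RNAPol2 included, 841 of 2494 TEAD-only peaks, or 33.7%, lay more than 50 kb from the nearest RNAPol2 peak. For YAP-TEAD peaks it was 30.2% (1226 of 4054), a difference of 3.48 points (1.16 to 5.82), and for all TEAD peaks 28.3%. A peak that overlaps RNAPol2 cannot lie that far, so this difference includes the difference in overlap. Among peaks without RNAPol2 overlap the order was reversed, at 841 of 2010 TEAD-only and 1226 of 2570 YAP-TEAD peaks, without a computed interval. No peak of RNAPol2, YAP or Myc lay within 50 kb of 511 TEAD-only peaks, or 20.5% (18.95 to 22.1). The share was 22.9% of the weaker TEAD peaks without YAP or Myc (22.4 to 23.4), a difference of -2.41 points (-4.02 to -0.714), and 14.8% of all TEAD peaks, which include those that hold these factors.

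**Figure D4:**
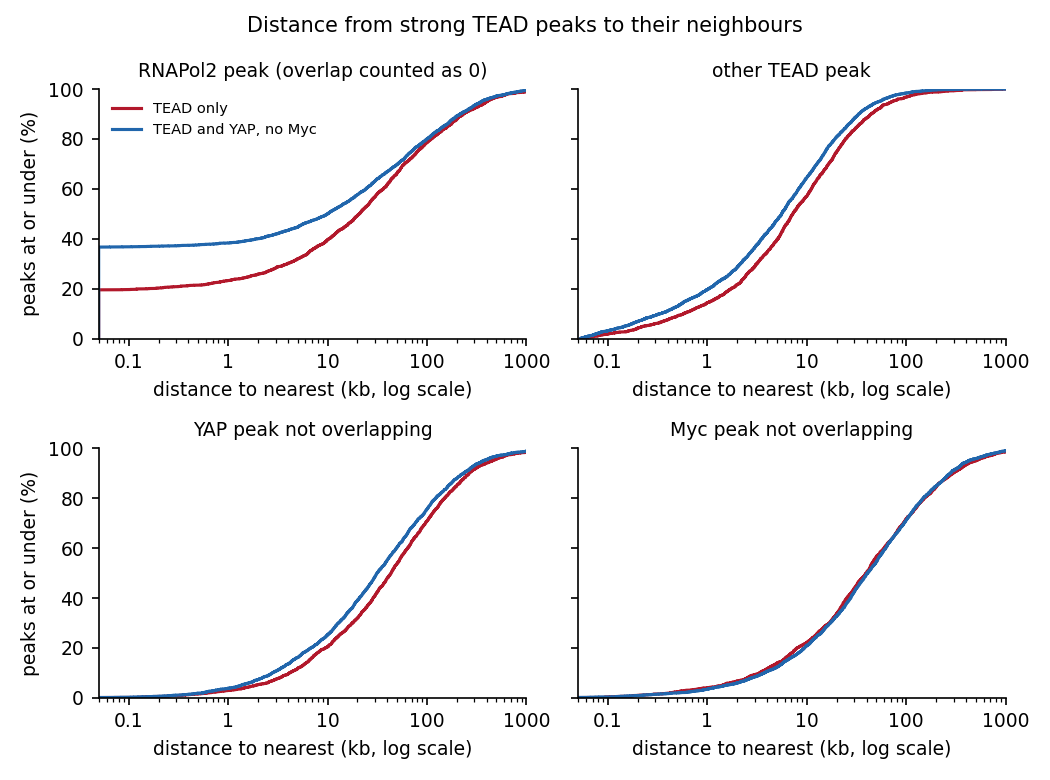
Cumulative percentage of TEAD-only and YAP-TEAD peaks (vertical axes) by the distance to the nearest RNAPol2, other TEAD, YAP or Myc peak (horizontal axes, kb, log scale); overlapping RNAPol2 peaks count as a distance of 0, and overlapping YAP and Myc peaks are left out. The curves start at 19.4% and 36.6% for RNAPol2, stand apart for TEAD (57.1% and 64.5% at 10 kb) and YAP (20.4% and 25.2%), and nearly coincide for Myc (22.2% and 20.9%).

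Leaving aside the 3 chromosome 11 peaks, the TEAD-only peaks of highest pileup differed in their surroundings. The peak at chr10:79251100-79251576 had a pileup of 167 and a fold of 28.76, with RNAPol2 4.41 kb, Myc 4.45 kb and YAP 20.7 kb away. At chr15:63384921-63385728 the pileup was 157 and the fold 15.65, at a control level of 3.19 times the floor, and a weak RNAPol2 peak of fold 4.43 overlapped. The peak at chr1:137220953-137221473 had nearly the same pileup, 156, but a control level at the floor and an RNAPol2 fold of 14.72. Pileups of 150 were found at chr3:27881221-27881776, where YAP lay 5.42 kb and RNAPol2 42.8 kb away, and at chr11:6087815-6088350, where each of the other factors lay about 11 kb away. The peaks at chr4:140212375-140212973 (149) and chr6:72312221-72312944 (148) overlapped RNAPol2 peaks of fold 7.30 and 16.31.

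The TEAD-only peaks were also ranked by fold in place of pileup. The 5 of highest fold, from 49.63 to 41.68, all had a control level of at most 1.06 times the floor. In 3 of them a Myc peak lay within 500 bp of the TEAD peak: 176 bp away at chr11:49551048-49551740, 285 bp at chr7:116815676-116816329 and 475 bp at chr4:140212375-140212973. The nearest YAP peak lay 25.4 kb or more from each of the 5, and 493 kb from the first of these 3. A Myc peak lay within 500 bp of 2.45% of all TEAD-only peaks and 5.05% of all TEAD peaks. The share among TEAD-only peaks of high fold as a group was not computed. For comparison, the YAP-TEAD peaks of highest pileup reached 339 at chr15:37684803-37686145, 323 at chr11:95843472-95844411, 318 at chr4:57572449-57573537, 311 at chr9:67055612-67056893 and 305 at chr15:10577818-10579006. Their YAP pileups were between 111 and 141, and all 5 overlapped RNAPol2.

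When the genome was divided into windows of 100 kb, 2010 windows held a single TEAD-only peak, 204 held 2, 24 held 3 and 1 held 4, which was not compared with other groups of peaks. The window with 4 was on chromosome 15 from 34.3 to 34.4 Mb, where 4 of 14 TEAD peaks held YAP and the median control level was 2.03 times the floor. Its TEAD-only peaks had pileups of 59 to 82, and those at chr15:34368196-34368526 and chr15:34371593-34371992 lay in the same RNAPol2 peak of 16509 bp. Among the windows with 3, that on chromosome 7 from 29.7 to 29.8 Mb held 12 TEAD peaks, 5 of them with YAP and 11 with RNAPol2, at a control level at the floor. The window on chromosome 10 from 107.7 to 107.8 Mb was of another kind, with 7 TEAD peaks, none with YAP or Myc and 2 with RNAPol2, and a YAP peak no nearer than 70.0 kb to its TEAD-only peaks.

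TEAD-only peaks were found on every autosome and on the X chromosome, with 53 to 238 peaks each, and 4 lay on unplaced sequences. Their share of the strong TEAD peaks ran from 18.9% on chromosome 9 (16.0 to 22.2) to 38.3% on chromosome 10 (34.4 to 42.3). It was 37.3% on the X chromosome (29.8 to 45.5), 34.7% on chromosome 12 (28.4 to 41.7) and 34.3% on chromosome 14 (28.6 to 40.5), and their intervals overlap that of chromosome 10. Chromosome 10, looked at because its share was the highest of 20 chromosomes, exceeded all other sequences together by 13.1 points (9.11 to 17.2). The interval does not allow for this choice. Each of the 13 windows of 10 Mb on chromosome 10 lay above the 26.0% of all strong TEAD peaks, between 27.3% and 57.9%. Windows of the other chromosomes were not examined in this way. The median control level of TEAD peaks was 1.46 times the floor on chromosome 10, 1.58 on chromosome 15 and 1.34 on chromosome 19, and ranged from 1.00 to 1.20 over the remaining 17. Of all TEAD peaks, 26.2%, 24.9% and 23.3% reached a pileup of 50 on these 3 chromosomes, and 13.5% to 22.2% did so on the remaining 17.

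Chromosome 15, where the control level was highest, had a share of TEAD-only peaks of 23.7% (21.2 to 26.4). Restricted to strong TEAD peaks with a control level from 25% above the floor to 2 times the floor, the share was 37.2% on chromosome 10 (32.6 to 42.0) and 21.9% on chromosome 15 (18.7 to 25.3), a difference of 15.3 points (9.55 to 21.0). At YAP-TEAD peaks the median ratio of YAP pileup to TEAD pileup was 0.361 on chromosome 10, 0.392 on chromosome 15 and 0.346 elsewhere. RNAPol2 overlapped 15.2% of the TEAD-only peaks of chromosome 10 (11.1 to 20.6) and 16.4% of those of chromosome 15 (12.2 to 21.6). The part of DNA copy number in these values was not tested.

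**Figure D5:**
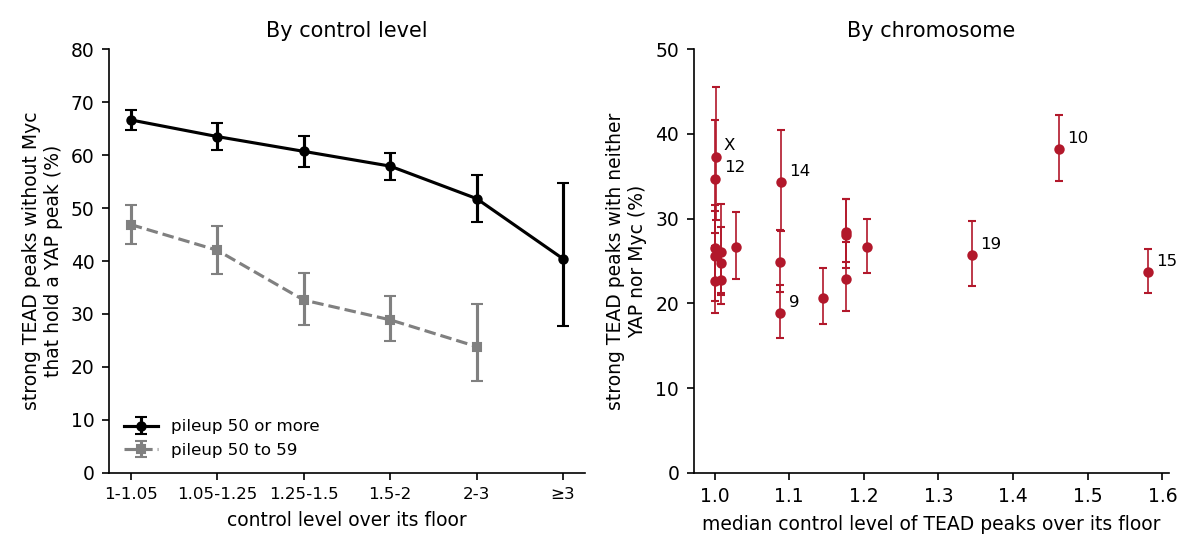
Left, percentage of strong TEAD peaks without Myc that held a YAP peak (vertical axis) by control level over its floor (horizontal axis), for pileups of 50 or more and of 50 to 59; right, percentage of strong TEAD peaks with neither YAP nor Myc (vertical axis) against the median control level of TEAD peaks (horizontal axis) for each chromosome; bars are 95% Wilson intervals. On the left the upper series is 66.7% in the first range and 51.8% between 2 and 3 times the floor; on the right chromosome 10 has 38.3% and chromosome 15, of the highest control level, 23.7%.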

How the data were processed

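ChIP-seq was performed for TEAD, YAP, Myc and RNAPol2, 1 sample each. According to the notes of the submitters, reads were processed with BWA 0.6.2, SAMtools and MACS2 2.0.9 in mm9. Per the file headers, the authors ran the peak caller on each ChIP sample by itself with a p-value cutoff of 1e-05 against the same control library, scaling the larger library towards the smaller. The deposited values are the pileup signal, the fold enrichment (the ratio of the pileup to the local control background), and the −log10 p-value and −log10 q-value of each peak. No per-sample file of the input was used here.

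An overlap was at least 1 shared bp, and distances were measured between peak edges. Where several RNAPol2 or YAP peaks overlapped a TEAD peak, that of highest fold was used. Weighted differences have a normal-approximation interval. Scripts ran in Python 3.11.15 with scipy 1.17.1, pandas 2.3.3, numpy 2.4.6 and matplotlib 3.10.9, and the routines were tested on simulated data. The peaks, named regions and comparisons were chosen with earlier results of these data known. Named regions were the extremes of pileup, fold, RNAPol2 fold and distance to YAP or Myc, the peaks next to the threshold and the windows of 100 kb with the most TEAD-only peaks, ties going to the higher fold. Alternatives were other pileup minimums, fold as height, other overlap rules, subsets of the lists and of chromosomes, and weighting of the compared peaks. The gene and promoter tables used here are of GRCm38.p6 and the peaks are in mm9, so no gene, promoter or sequence was assigned to a peak.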

Additional observations from a re-analysis of the deposited data

How the results depend on the processing

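In the 18 alternatives in which it was computed, the difference in RNAPol2 overlap between TEAD-only and YAP-TEAD peaks was -21.2 to -5.66 points. In 13 alternatives, the difference in the share with another TEAD peak within 10 kb was -10.3 to -4.82 points, the latter with weighting to pileup and width. The number of TEAD-only peaks depended on the thresholds: 5151 at a pileup minimum of 40, 1225 at 60, 467 at 75, 4428 with only YAP and Myc peaks of −log10 q of at least 10, and 1236 with only control levels of at most 25% above the floor. RNAPol2 overlap of TEAD-only and YAP-TEAD peaks was 17.7% and 34.5% at a minimum of 40, 22.9% and 42.2% at 75, 29.9% and 43.1% with summits within 250 bp in place of overlap, 26.4% and 47.7% at the stricter −log10 q, 16.1% and 33.2% with an RNAPol2 summit within 500 bp, and 12.2% and 21.5% with the stronger 50% of RNAPol2 peaks. It was 17.2% at TEAD-only peaks with no YAP or Myc peak within 1000 bp, and 38.5% at YAP-TEAD peaks at a minimum of 60 and 34.5% at low control levels. Weighted to pileup, YAP-TEAD peaks had 30.3%, and weighted to pileup and width 25.1%. The difference was -13.2 points with summits within 250 bp, -21.2 at the stricter −log10 q, -9.23 with the stronger RNAPol2 peaks, -10.9 weighted to pileup and -5.66 weighted to pileup and width. With an RNAPol2 summit within 500 bp and the latter weighting, a setting added after seeing the data like the weighting to width, YAP-TEAD peaks had 23.0% and the difference was -6.95 points. With fold as height, the share of TEAD-only peaks with another TEAD peak within 10 kb was 53.1%, and the difference -10.3 points. That share was 54.9% with no YAP or Myc peak within 1000 bp, 59.1% with summits, 59.9% at the stricter −log10 q and 52.3% at low control levels. The median control level was 1.21 times the floor at a minimum of 40, 1.34 at 75, 1.01 with fold as height, 1.18 without chromosomes 10, 15 and 19, and 1.01 at low control levels. Leaving out the start of chromosome 11, chosen after seeing the data, left 2491 TEAD-only peaks and a difference in RNAPol2 overlap of -17.2 points.

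No paired analysis was possible because each antibody had 1 sample. No alternative depth was tried, and the part of depth in the missing YAP and Myc calls was not tested.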

Other observations

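The class of the nearest TEAD peak was looked at for the 1423 TEAD-only peaks with another TEAD peak within 10 kb. That neighbour held YAP at 291 of them, or 20.4% (18.4 to 22.6), held Myc without YAP at 168, or 11.8% (10.2 to 13.6), and held neither at 964, or 67.7% (65.3 to 70.1). In 78 cases, or 5.48%, it was itself a TEAD-only peak of pileup 50 or more. The share with such a neighbour was 5.28% for YAP-TEAD peaks and 4.92% for weaker TEAD peaks without YAP or Myc. The neighbour held neither factor in 69.3% and 66.1% of cases in these 2 groups. For YAP-TEAD peaks the neighbour held YAP in 22.3% of cases (20.8 to 24.0) and Myc without YAP in 8.37% (7.37 to 9.49), and for weaker TEAD peaks without YAP or Myc these shares were 21.1% (20.5 to 21.7) and 12.8% (12.3 to 13.4). For a neighbour with Myc and no YAP, the interval of TEAD-only peaks lay above that of YAP-TEAD peaks and overlapped that of the weaker peaks. None of the 3 TEAD peaks on the mitochondrial sequence was a TEAD-only peak.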
